A study of Caenorhabditis elegans with 8 samples.

Results

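The insulin-like peptide genes of Caenorhabditis elegans were taken as every gene with a symbol made of ins- and a number, together with daf-28. They numbered 40 of the 46916 genes in the table, of which 39 were protein coding and 1, ins-38 (WBGene00002121), was a pseudogene. Their transcripts were measured by RIP-seq (RNA immunoprecipitation, then sequencing) in L1 larvae, the first stage, which had hatched without food after bleaching and had been UV crosslinked. ADR-1, which binds double-stranded RNA, was FLAG-tagged and precipitated with a FLAG antibody. The adr-2(-) strain, HAH26, and the control strain, HAH25, each carried a neural adr-1 transgene in an adr-1(-) background, and HAH26 was in addition adr-2(-). Both strains thus lacked their own adr-1 (allele tm668) and carried the extrachromosomal array blmEx20, on which the rab-3 promoter drives GFP and 3XFLAG ADR-1 in neurons. The adr-2(-) strain also carried adr-2(ok735), a deletion of the adenosine deaminase that edits RNA in this animal. Each strain gave immunoprecipitates (IP) and lysates taken before the precipitation (input), with 2 biological replicates per group by the labels, and so 8 libraries.

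C. elegans insulin-like peptides are small secreted proteins, made largely in neurons and in the intestine, that act on the receptor DAF-2. Agonists activate DAF-2, which through the AGE-1 kinase and the AKT kinases keeps the FOXO transcription factor DAF-16 out of the nucleus, and antagonists work against this. The pathway is known in L1 larvae for the choice between arrest without food and growth, and later for dauer formation and lifespan. The known agonists include DAF-28, INS-3, INS-4, INS-6, INS-7, INS-9 and INS-35, and INS-1, INS-17 and INS-18 are known as antagonists. In whole animals a lower level may come from fewer cells of a type or from less RNA per cell, which cannot be told apart.

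The mature peptides are held together by cysteines, and the coding sequences around them show how the members relate. Reference coding bases (RefSeq genome, WBcel235) are given here 5′ to 3′ for members on which the results turn, as 70 codons each, ending with the last cysteine codon of the gene, with cysteine codons in capitals. The members shown are the agonists daf-28 (chrV:19815133-19816454, plus strand, gene span) and ins-6 (chrII:6000436-6001009, plus strand), the antagonists ins-17 (chrIII:4476918-4477572, minus strand) and ins-1 (chrIV:10436701-10438412, plus strand), and ins-34 (chrIV:14106574-14107737, plus strand), ins-35 (chrV:20375536-20376302, plus strand) and ins-20 (chrII:6010844-6011321, plus strand).
daf-28: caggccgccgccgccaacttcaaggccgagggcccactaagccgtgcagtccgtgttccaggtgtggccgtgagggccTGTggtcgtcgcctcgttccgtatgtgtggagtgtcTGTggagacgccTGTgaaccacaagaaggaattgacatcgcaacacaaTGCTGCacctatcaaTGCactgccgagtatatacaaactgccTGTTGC
ins-6: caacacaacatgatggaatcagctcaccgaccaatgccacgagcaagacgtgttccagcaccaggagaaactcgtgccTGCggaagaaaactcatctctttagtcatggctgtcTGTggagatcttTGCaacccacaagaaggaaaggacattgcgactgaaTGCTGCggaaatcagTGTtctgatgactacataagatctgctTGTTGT
ins-17: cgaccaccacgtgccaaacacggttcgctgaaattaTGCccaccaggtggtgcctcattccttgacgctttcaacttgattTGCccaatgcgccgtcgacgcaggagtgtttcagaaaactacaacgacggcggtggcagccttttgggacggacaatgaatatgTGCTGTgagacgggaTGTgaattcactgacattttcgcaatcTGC
ins-1: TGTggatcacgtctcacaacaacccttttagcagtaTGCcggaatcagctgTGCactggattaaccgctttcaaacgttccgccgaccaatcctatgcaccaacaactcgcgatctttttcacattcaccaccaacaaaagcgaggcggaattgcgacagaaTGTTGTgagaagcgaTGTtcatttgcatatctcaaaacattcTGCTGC
ins-34: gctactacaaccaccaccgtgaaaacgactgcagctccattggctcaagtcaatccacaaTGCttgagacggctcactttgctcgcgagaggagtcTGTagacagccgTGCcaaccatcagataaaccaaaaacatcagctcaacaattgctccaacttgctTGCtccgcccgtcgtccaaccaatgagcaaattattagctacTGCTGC
ins-35: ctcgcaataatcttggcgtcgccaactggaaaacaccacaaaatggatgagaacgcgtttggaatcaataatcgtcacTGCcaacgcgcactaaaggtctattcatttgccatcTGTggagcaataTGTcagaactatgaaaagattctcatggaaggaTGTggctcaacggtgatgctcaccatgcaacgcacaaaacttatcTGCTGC
ins-20: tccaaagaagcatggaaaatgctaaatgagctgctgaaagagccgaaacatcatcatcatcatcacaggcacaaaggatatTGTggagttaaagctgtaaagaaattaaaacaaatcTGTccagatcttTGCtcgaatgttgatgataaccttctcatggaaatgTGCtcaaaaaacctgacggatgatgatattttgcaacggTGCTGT
In daf-28, ins-6, ins-17 and ins-1 a pair of adjacent cysteine codons was followed after 3 other codons by a cysteine codon and after 8 further codons by another, the spacing of the insulin A chain. This spacing, searched in frame on the coding strand, was found in 18 of the 39 coding members and in 37 of 19951 protein-coding genes with a coding sequence (0.186%), the members included. All 18 were daf-28 or had numbers from ins-1 to ins-18, among which ins-16 lacked it. In the bases shown for ins-34, ins-35 and ins-20 the only adjacent pair of cysteine codons was the last one, with no cysteine codon after it.

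The libraries differed in depth, which bears on every value below. The deposited values are reads divided by a size factor for each library, called units here. Recovered reads numbered from 20950841 to 79185013 in the IPs and from 2595323 to 2969937 in the inputs. One read was worth 6.40 and 8.91 units in the inputs of adr-2(-), 3.01 and 2.63 units in those of the control and at most 0.324 units in any IP. Between 13.9% (adr-2(-) IP replicate 2) and 49.6% (adr-2(-) IP replicate 1) of the reads came from the ribosomal RNA gene rrn-3.1. Of the targeted genes, adr-1 was listed at 0 in all 8 libraries, so it gave no check of the labels, and adr-2 was not analysed here. Summed markers of neurons (8 genes) were at 9390 and 8900 units in the adr-2(-) IPs against 4828 and 4542 units in the adr-2(-) inputs. In the control they were at 11297 and 3467 units in the IPs against 4091 and 4089 units in the inputs. Muscle markers (5 genes) were at 30128 and 30466 units in the adr-2(-) IPs against 10604 and 12763 units in the adr-2(-) inputs, and at 35819 and 9849 units in the control IPs against 13822 and 14250 units in the control inputs. In adr-2(-), 3 of the 8 neuron and 2 of the 5 muscle markers were called higher in the IPs, against 14.3% of all genes tested (limma). Of these markers, 7 of the 8 and 4 of the 5 had over 1000 exon bases. The median exon length was 1692.5 bases for the neuron markers and 3424 bases for the muscle markers. Among all genes with 1501 to 2000 exon bases, 15.1% were called higher, and among those with 3001 to 5000 bases 38.8% were. No library from an untagged strain or a mock precipitation was analysed here, so RNA recovered without ADR-1 was not measured.

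To ask which members were detected, a member was counted where it had at least 3 reads. With both replicates required, 25 of 40 members were detected in the adr-2(-) IPs against 15 in the adr-2(-) inputs. In the control, 24 members were detected in the IPs against 13 in the inputs. Single adr-2(-) libraries detected 27 and 29 members (IPs) against 18 and 15 (inputs), and single control libraries 25 and 30 (IPs) against 15 and 17 (inputs). The IPs thus listed more members than the inputs in both strains. Over all 19963 protein-coding genes, 79.2% were detected in both adr-2(-) IPs against 52.6% in both adr-2(-) inputs, and 77.3% in the control IPs against 60.9% in the control inputs.

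This order depended on depth. At the depth of the shallowest library, 2595323 reads, the expected number detected in both replicates was 7.97 in the adr-2(-) IPs against 14.9 in the adr-2(-) inputs, with 7.23 in the control IPs against 12.9 in the control inputs. Single libraries did not all follow this order at that depth, with 8.08 and 19.03 members expected for the adr-2(-) IPs against 17.9 and 15 members for the adr-2(-) inputs. For the control, 8.54 and 12.96 members were expected in the IPs against 14.8 and 16.5 in the inputs. The expected number in adr-2(-) IP replicate 2 thus lay above those of both adr-2(-) inputs. Total reads were matched here, rRNA included. For all protein-coding genes the expected share in both replicates at that depth was 59.6% in the adr-2(-) IPs against 52.3% in the adr-2(-) inputs, and 56.9% in the control IPs against 59.9% in the control inputs. Between adr-2(-) and control libraries of one fraction the counts differed by 1 in the IPs and by 2 in the inputs.

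**Figure D1:**
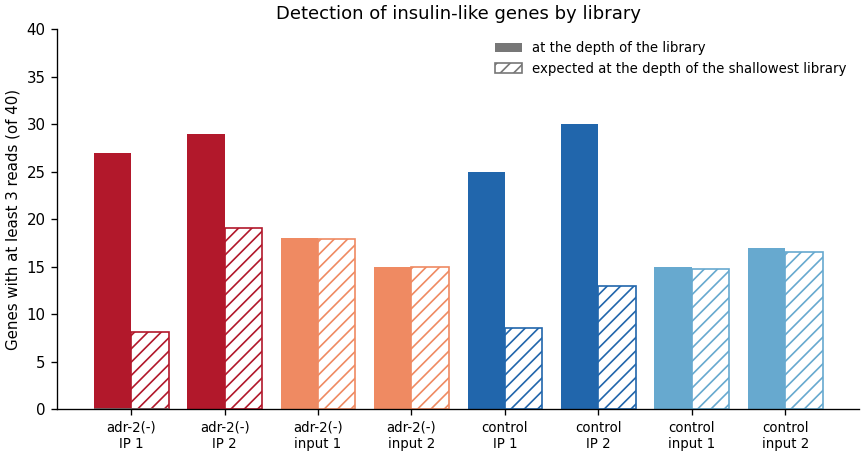
Number of insulin-like genes, of 40, with at least 3 reads in each library (filled bars) and the number expected if the library had 2595323 reads (hatched bars). The filled bars are higher in the 4 IPs, at 25 to 30 genes, and the hatched bars of the IPs fall to between 8.08 and 19.0.

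Other secreted peptide families were detected more completely. Of the 31 flp genes, which encode FMRFamide-like neuropeptides, 93.5 to 96.8% had at least 3 reads in both replicates of a group, and of the 71 nlp genes, another neuropeptide family, 83.1 to 93.0% did. The insulin-like genes were at 62.5% in the IPs against 37.5% in the inputs of adr-2(-), and at 60% in the IPs against 32.5% in the inputs of the control.

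Of the 40 members, 23 had at least 3 reads in all 4 IPs, 11 in all 4 inputs, and the same 11 in all 8 libraries. The 11 were ins-1, ins-10, ins-17, ins-18, ins-20, ins-24, ins-26, ins-27, ins-30, ins-34 and ins-35. At the other end, 7 members stayed under 3 reads in every library and 9 were at 0 reads in all 4 inputs. The floor of 3 reads was 19.2 and 26.7 units in the adr-2(-) inputs and 9.02 and 7.90 units in the control inputs. A count of 0 in an input thus does not show that a transcript was absent. At least 3 reads in all 4 IPs but fewer in each of the 4 inputs were found for 4 members, ins-5, ins-22, ins-28 and ins-36, named after their values were seen. Their reads in the adr-2(-) IPs ranged up to 55 (ins-28, replicate 2), and in the adr-2(-) inputs up to 2. No enrichment follows from this: wherever both inputs of a strain held fewer than 3 reads (22 members in adr-2(-), 21 in the control), the mean IP level in units lay below the floor of those inputs.

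Detected members lay in tandem groups as well as alone. Of 16 members on chromosome II, 9 were detected in all 4 IPs and 1, ins-20, in all 4 inputs. Of 10 on chromosome I, 7 were detected in all IPs and 5 in all inputs, 4 of which (ins-24, ins-26, ins-27 and ins-30) are in a run of neighbours between positions 14027236 and 14037777. On chromosome V all 3 members were detected in all IPs, and on chromosome X neither of the 2 was. Of the 18 members with the A-chain spacing, 12 were detected in all IPs and 4 in all inputs, against 11 and 7 of the 21 coding members without it.

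The known agonists were among the scarce members apart from ins-35. In reads, daf-28 (WBGene00000920) had 59 and 244 in the adr-2(-) IPs against 8 and 1 in the adr-2(-) inputs, with 31 and 47 in the control IPs against 8 and 6 in the control inputs. The agonist ins-4 had 14 and 22 reads in the IPs against 6 and 1 in the inputs of adr-2(-), and 4 and 11 in the IPs against 0 and 2 in the inputs of the control. Both were thus read mainly in the deeper IPs. The agonist ins-7, known from the intestine, had 2 and 4 reads in the adr-2(-) IPs against 0 and 1 in the adr-2(-) inputs, with 2 and 10 in the control IPs against 4 and 1 in the control inputs. For ins-5 there were 13 and 17 reads in the adr-2(-) IPs against 1 and 0 in the adr-2(-) inputs, with 12 and 6 in the control IPs against 1 and 0 in the control inputs. The agonist ins-9 had 3 reads in adr-2(-) IP replicate 1 and was at 0 in the other 7 libraries. The 23 members whose mean over the libraries was under 10 units, ins-4, ins-5, ins-7 and ins-9 included, together gave 122 and 178 reads in the IPs against 13 and 8 in the inputs of adr-2(-), and 103 and 204 in the IPs against 14 and 15 in the inputs of the control. These 23 were not tested further.

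The whole family was a small part of the libraries. It held 49.6 (95% Wilson interval 48.1 to 51.2) and 189.8 (184.0 to 195.8) reads per 1000000 reads in the adr-2(-) IPs, against 108.3 (96.8 to 121.1) and 95.9 (84.7 to 108.6) in the adr-2(-) inputs. In the control it held 53.8 (51.8 to 55.9) and 96.8 (94.0 to 99.7) in the IPs, against 84.2 (74.4 to 95.3) and 106.5 (95.3 to 118.9) in the inputs. Such intervals hold for counting error alone, as reads copied by PCR are not separate molecules. The IP replicates lay outside each other's intervals in both strains, and adr-2(-) IP replicate 2, the library with the lowest rrn-3.1 share, stood highest.

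Different members led the 2 fractions. In the inputs ins-35 held the most family reads, 19.0 and 23.3% in adr-2(-) and 24.0 and 18.8% in the control, followed by ins-17 with 15.1 and 20.5% in adr-2(-) and 13.2 and 14.7% in the control. In IP replicate 1 of both strains ins-1 led, with 27.6% in adr-2(-) and 34.6% in the control, and ins-34 was next with 26.1% in adr-2(-) and 21.8% in the control. The replicate 2 IPs were led by ins-17 in adr-2(-), with 22.2%, and by ins-34 in the control, with 34.3%.

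Levels were then set per kilobase of exon so that genes could be compared. In the adr-2(-) inputs ins-35 averaged 1162 units per kilobase (replicates 972 and 1352), ins-17 averaged 672 (529 and 815) and ins-18 averaged 480 (445 and 515), and the replicates of these neighbours in the order did not overlap. In the control inputs ins-35 averaged 440 units per kilobase (407 and 472), ins-17 averaged 198 (178 and 218), ins-34 averaged 124 (119 and 130) and ins-18 averaged 105 (76.6 and 134), of which ins-34 and ins-18 overlapped. The order was headed in both strains by the agonist ins-35 and the antagonist ins-17. The lowest of the 17 tested members was daf-28 in the adr-2(-) inputs, with a mean of 39.3 units per kilobase, and ins-6 in the control inputs, with 15.9. In the adr-2(-) IPs ins-17 (144 and 514), ins-34 (156 and 305), ins-1 (203 and 227) and ins-18 (113 and 261) overlapped, so these IP levels had no settled order.

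**Figure D2:**
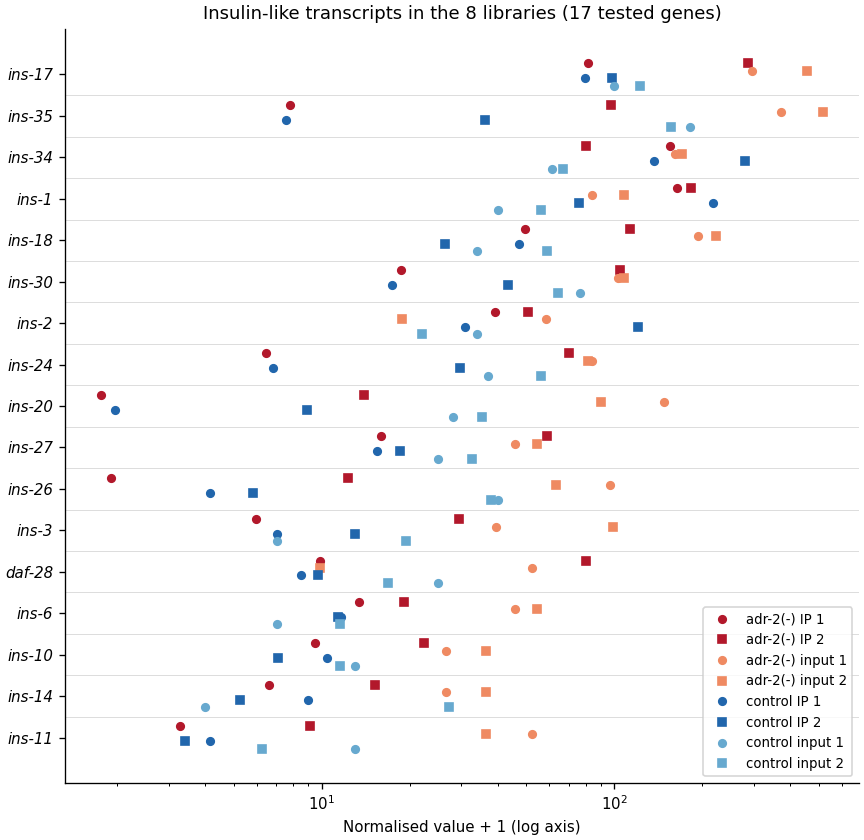
Normalised value plus 1 (log axis) of the 17 tested insulin-like genes, sorted by their mean, in each of the 8 libraries, with circles for replicate 1 and squares for replicate 2. On this scaling the adr-2(-) inputs lie to the right of the control inputs without overlap for 14 genes (10 of 17 were higher after rescaling to the same total), and for ins-20, ins-26 and ins-35 the IPs of both strains lie to the left of their inputs.

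The other agonists and the remaining tested members lay lower. The agonist ins-3 was at 4.98 and 28.5 units in the adr-2(-) IPs against 38.4 and 98.0 units in the adr-2(-) inputs, and ins-6 at 12.4 and 18.2 units against 44.8 and 53.4 units. In the control, ins-3 was at 6.04 and 12.0 units in the IPs against 6.02 and 18.4 units in the inputs, and ins-6 at 10.6 and 10.3 units against 6.02 and 10.5 units. IPs and inputs thus overlapped in the control for these agonists, and did not overlap in adr-2(-).

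Neighbours in the chromosome I run also differed between the adr-2(-) IP replicates, by 12.7-fold (ins-24), 5.89-fold (ins-30) and 3.88-fold (ins-27). Elsewhere ins-20 and ins-35 differed more, by 17.1-fold and 14.3-fold. ins-24 was at 5.44 and 69.1 units in the adr-2(-) IPs against 83.2 and 80.2 units in the adr-2(-) inputs, and at 5.80 and 28.8 units in the control IPs against 36.1 and 55.3 units in the control inputs. ins-30 was at 17.7 and 104 units in the adr-2(-) IPs against 102 and 107 units in the adr-2(-) inputs, and at 16.4 and 42.5 units in the control IPs against 75.2 and 63.2 units in the control inputs. ins-27 was at 14.9 and 58.1 units in the adr-2(-) IPs against 44.8 and 53.4 units in the adr-2(-) inputs, and at 14.5 and 17.6 units in the control IPs against 24.1 and 31.6 units in the control inputs. In the control, the IPs of all 3 lay below both inputs, and in adr-2(-) those of ins-27 and ins-30 reached the level of the inputs.

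Of the others, ins-2 was at 38.1 and 49.9 units in the adr-2(-) IPs against 57.6 and 17.8 units in the adr-2(-) inputs, and at 29.98 and 120 units in the control IPs against 33.1 and 21.1 units in the control inputs. ins-10 was at 8.46 and 21.4 units in the adr-2(-) IPs against 25.6 and 35.6 units in the adr-2(-) inputs, and ins-14 at 5.59 and 14.3 units against 25.6 and 35.6 units. Their control values were 9.43 and 6.10 units in the IPs against 12.0 and 10.5 units in the inputs for ins-10, and 7.98 and 4.25 units against 3.01 and 26.4 units for ins-14. IPs and inputs overlapped in both strains for ins-2 and in the control for ins-14.

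The 17 members with a mean of at least 10 units were tested in a limma fit over all 13276 genes at or above that mean. Calls needed an adjusted p below 0.05 and a log2 change of 1 or more in size, where changes are differences of log2(units + 1), a scale that understates the change of low genes. The fit held 215 rows whose deposited mean was not that of the 8 values, called unmatched rows here, none of them a member. The study's adjusted p threshold of 0.001, which it applied to a DESeq2 likelihood ratio test, gave no limma call of a member in any comparison. Of all 13276 genes, limma then called 30 higher and 82 lower for IP over input in adr-2(-), and 0 and 174 in the control. Between the inputs it called 0 and 0, between the IPs 173 and 0, and for the ratio of ratios 182 and 0.

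To ask which members were over- or under-represented with ADR-1, IPs were compared with inputs within each strain. In adr-2(-), 4 of 17 members were called lower in the IPs, against 10.4% of all genes tested, and 0 were called higher, against 14.3% of all genes (limma). Among genes with up to 1000 exon bases, which include all 17 members, 23.0% were called lower and 2.28% higher. At an unadjusted p under 0.05 limma had 6 members lower and 0 higher, against 2152 lower and 2997 higher of all 13276 genes. edgeR and DESeq2 also called 0 members higher, against 1381 (deposited size factors) and 1889 genes. The called members were ins-20, ins-26, ins-35 and ins-11. The median log2 change was -1.47 over the 17 members and 0.23 over all genes tested, or -0.30 and 1.39 with libraries rescaled to the same total. No member was called lower without adr-2(-) IP replicate 1 or without either adr-2(-) input, 2 were without either control input and 6 were without adr-2(-) IP replicate 2. Each of these fits without a library, which leave 1 library in a group, also called fewer of all genes lower than the full fit did. A lower count of members there was thus not particular to the members. With edgeR on the deposited size factors 1 member was called lower, ins-26, against 1140 of all genes.

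The largest change was that of ins-20 (WBGene00002103). It was at 0.76 and 12.97 units in the adr-2(-) IPs against 147 and 89.1 units in the adr-2(-) inputs, from 5 and 40 reads against 23 and 10. Both IPs lay below both inputs, and the log2 change was -4.54 ± 1.14 (SE, limma adjusted p = 0.0230). For ins-26 (WBGene00002109), values were 0.91 and 11.3 units in the adr-2(-) IPs against 96.0 and 62.3 units in the adr-2(-) inputs (log2 change -4.01 ± 0.95, limma adjusted p = 0.0192). Again no IP reached an input, although the IP replicates differed 12.5-fold.

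The agonist ins-35 (WBGene00002118) was at 6.80 and 97.0 units in the adr-2(-) IPs against 371 and 517 units in the adr-2(-) inputs, a log2 change of -3.99 ± 1.14 (limma adjusted p = 0.0360). The fourth called member, ins-11 (WBGene00002094), known as an intestinal signal in the response to pathogens, was at 2.27 and 8.11 units in the adr-2(-) IPs against 51.2 and 35.6 units in the adr-2(-) inputs. Its log2 change was -3.003 ± 0.92 (limma adjusted p = 0.0456). In each of the 4, the replicate 2 IP was higher than the replicate 1 IP, and neither overlapped the inputs. Over the 17 members, both adr-2(-) IPs lay below both adr-2(-) inputs in 12, against 30.7% of all genes tested and 55.2% of those with up to 1000 exon bases, and above them in 1, ins-1, against 39.1% and 14.4%. In the control, both IPs lay below both inputs in 10 members, against 24.6% of all genes and 31.3% of the short ones, and above them in 2, against 26.1% and 18.4%.

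Members at or above their inputs were few. The antagonist ins-1 (WBGene00002084) was at 163 and 182 units in the adr-2(-) IPs against 83.2 and 107 units in the adr-2(-) inputs, a log2 change of 0.86 ± 0.56 that was not called (limma adjusted p = 0.286). The positive values of daf-28 (0.31 ± 1.15) and ins-2 (0.43 ± 0.82) were smaller than their SE. The antagonists ins-17, at 80.3 and 286 units in the adr-2(-) IPs against 295 and 454 units in the adr-2(-) inputs, and ins-18, at 48.8 and 113 units in the IPs against 192 and 223 units in the inputs, had log2 changes of -1.26 ± 0.60 and -1.47 ± 0.59. Neither passed the test (limma adjusted p = 0.156 for ins-17 and 0.105 for ins-18). The remaining 8 members, ins-3, ins-6, ins-10, ins-14, ins-24, ins-27, ins-30 and ins-34, had uncalled log2 changes between -2.23 and -0.57.

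In the control, 0 of 17 members were called higher in the IPs, against 0.535% of all genes tested, and 0 lower, against 2.84% (limma). Both shares were 0% of 13061 genes without the unmatched rows. At an unadjusted p under 0.05, limma had 2 members higher and 3 lower, against 1124 higher and 1326 lower of all 13276 genes. edgeR called 0 members, against 52 genes higher and 363 lower on the deposited size factors. DESeq2 called ins-34 higher and ins-26 and ins-35 lower, against 652 genes higher and 741 lower. The median log2 change was -0.61 over the members and 0.11 over all genes. The highest value belonged to ins-34 (WBGene00002117), at 136 and 279 units in the control IPs against 60.2 and 65.9 units in the control inputs (log2 change 1.62 ± 0.51, limma adjusted p = 0.146). For ins-1, the control IPs were at 216 and 75.0 units against 39.1 and 55.3 units in the control inputs (1.44 ± 0.56, limma adjusted p = 0.226). In both genes the IPs exceeded both inputs.

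Of the 4 members called lower in the adr-2(-) IPs, 3 had the lowest log2 changes in the control as well. ins-35 was at 6.53 and 35.3 units in the control IPs against 180 and 155 units in the control inputs (log2 change -3.35 ± 1.14, limma adjusted p = 0.175). For ins-26 the values were 3.14 and 4.81 units in the control IPs against 39.1 and 36.9 units in the control inputs (-2.99 ± 0.95, limma adjusted p = 0.149), and for ins-20 they were 0.97 and 7.95 units against 27.1 and 34.2 units (-2.91 ± 1.14, limma adjusted p = 0.226). The IPs of these 3 lay below both inputs without passing the test. The fourth, ins-11, was at 3.14 and 2.40 units in the control IPs against 12.0 and 5.27 units in the control inputs (-1.27 ± 0.92, limma adjusted p = 0.487), a smaller change than those of the uncalled ins-24 (-1.68) and ins-30 (-1.34). Over the 17 members, the log2 IP over input values of the 2 strains, which come from separate libraries of one experiment, had a Pearson r of 0.76 and a Spearman rho of 0.63.

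**Figure D3:**
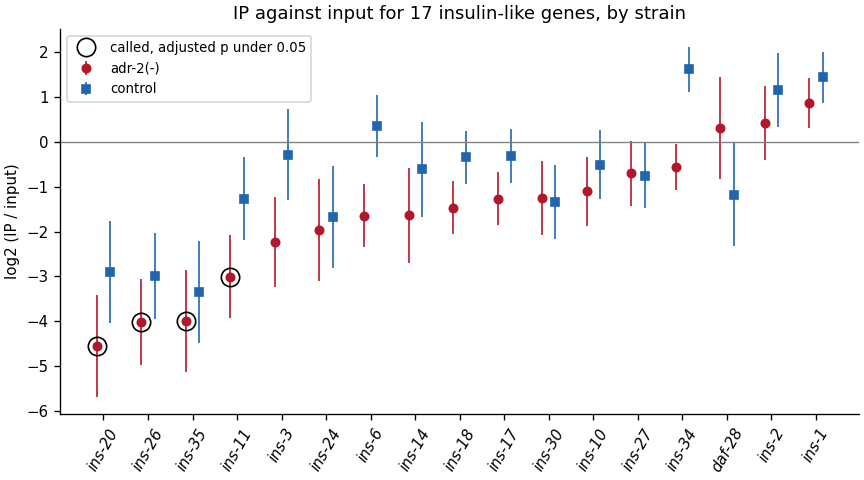
Log2 change of IP over input for the 17 tested insulin-like genes in adr-2(-) (red circles) and control (blue squares), with the SE of the limma fit as bars, sorted by the adr-2(-) value. The 4 ringed genes, ins-20, ins-26, ins-35 and ins-11, were called lower in adr-2(-), and ins-1 and ins-2 are above 0 in both strains.

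Markers of the intestine were set beside these values. The 4 markers summed to 12880 and 20832 units in the adr-2(-) IPs against 153509 and 169941 units in the adr-2(-) inputs, and to 14327 and 6339 units in the control IPs against 55437 and 65220 units in the control inputs. Of the 4, asp-1 and elt-2 were called lower in the adr-2(-) IPs, against 10.4% of all genes tested. In the control IPs asp-1 was, against 2.84% (there not without the unmatched rows, limma adjusted p = 0.0532). No marker was at 0, and asp-1 made up most of the sum. The log2 changes of asp-1, elt-2, act-5 and ges-1 were -3.58, -1.83, -1.93 and -1.19 in adr-2(-). In the control they were -3.06, -0.05, -0.52 and -0.70, so there mainly asp-1 was lower. The part of these markers in the result was not tested.

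To ask whether lysate levels differed between strains, the inputs were compared. In adr-2(-) inputs, 2 of 17 members were called higher, against 5.03% of all genes tested, and 0 lower, against 9.36% (limma). At an unadjusted p under 0.05, limma had 6 members higher and 0 lower, against 1989 higher and 2440 lower of all 13276 genes. DESeq2 called ins-17 and ins-18 higher and 0 members lower, against 976 genes higher and 1197 lower. edgeR called 0 members, against 401 genes higher and 747 lower on the deposited size factors. All 17 members had a positive log2 change, against 10 of 17 when each library was rescaled to the same total. In 14 members both adr-2(-) inputs exceeded both control inputs in the deposited units, against 38.3% of all genes tested and 64.1% of those with up to 1000 exon bases. In 0 members they lay below both, against 37.1% of all genes and 14.2% of those with up to 1000 exon bases. The median log2 change was 1.37 over the members and 0.01 over all genes, and after rescaling to the same total it was 0.09 over the members and -1.25 over all genes. The 4 intestine markers summed to 153509 and 169941 units in the adr-2(-) inputs against 55437 and 65220 units in the control inputs, with 0 of 4 called by limma, and their part in the result was not tested.

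The called members were an antagonist and an agonist. ins-18 (WBGene00002101) was at 192 and 223 units in the adr-2(-) inputs against 33.1 and 58.0 units in the control inputs, from 30 and 25 reads against 11 and 22 (log2 change 2.21 ± 0.59, limma adjusted p = 0.0426). The agonist ins-6 (WBGene00002089) was at 44.8 and 53.4 units in the adr-2(-) inputs against 6.02 and 10.5 units in the control inputs (2.47 ± 0.69, limma adjusted p = 0.0482). The ins-6 values came from 7 and 6 reads against 2 and 4. The groups did not overlap in either gene, and in both the inputs held few reads. Neither call was made without any 1 of the 4 inputs, with edgeR or after rescaling to the same total. ins-17 was at 295 and 454 units in the adr-2(-) inputs against 99.3 and 121 units in the control inputs (1.73 ± 0.60, limma adjusted p = 0.0860). ins-35 was at 371 and 517 units in the adr-2(-) inputs against 180 and 155 units in the control inputs (1.38 ± 1.14, limma adjusted p = 0.426). The other 13 uncalled members had log2 changes between 0.15 (daf-28) and 2.42 (ins-3).

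Transcript length moved with both sets of values. The tested members had 295 to 803 exon bases, with a median of 478, against a median of 1406 over all genes tested. In adr-2(-), genes with up to 400 exon bases had a median log2 IP over input of -1.61 and those of 401 to 600 bases of -1.23, whereas genes over 5000 bases had 1.76. The 5 members with up to 400 exon bases had a median of -1.64, and the 9 with 401 to 600 bases had -1.64 too. Between the inputs, adr-2(-) over control, the medians of all genes in the same classes were 1.52, 1.26 and -1.15, and those of the members were 1.38 and 1.73.

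Each member was also set beside the median of its own length class. The members were above it in 6 of 17 for IP over input in adr-2(-), in 4 of 17 in the control and in 9 of 17 for the inputs. Among all genes with up to 1000 exon bases, 23.0% were called lower in the adr-2(-) IPs and 13.01% higher in the adr-2(-) inputs. When the length classes were centred in each library before the fit, a step chosen after seeing the data, 0 members were called in any of the 5 comparisons (limma). Of all 13276 genes, 956 were then called higher and 898 lower in the adr-2(-) IPs, and 281 higher and 605 lower in the adr-2(-) inputs. For IP over input in the control 88 were called higher and 402 lower. Between the IPs 203 and 0 were, and for the ratio of ratios 224 and 12. At an unadjusted p under 0.05, 1992 genes were lower in the adr-2(-) IPs, and 1119 higher and 1392 lower in the control IPs. At that level 2 members were lower in the adr-2(-) IPs, ins-20 (log2 change -3.21, limma adjusted p = 0.0730) and ins-26 (-2.68, limma adjusted p = 0.0729). In the control IPs 2 members were higher and 3 lower, and 0 members passed it in the other 3 comparisons. Of all genes, 1595 were higher and 1927 lower between the inputs at that level, 292 and 38 between the IPs, and 1073 and 800 for the ratio of ratios. The median log2 changes of the members were then -0.14 for IP over input in adr-2(-), -0.11 in the control and 0.18 between the inputs.

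**Figure D4:**
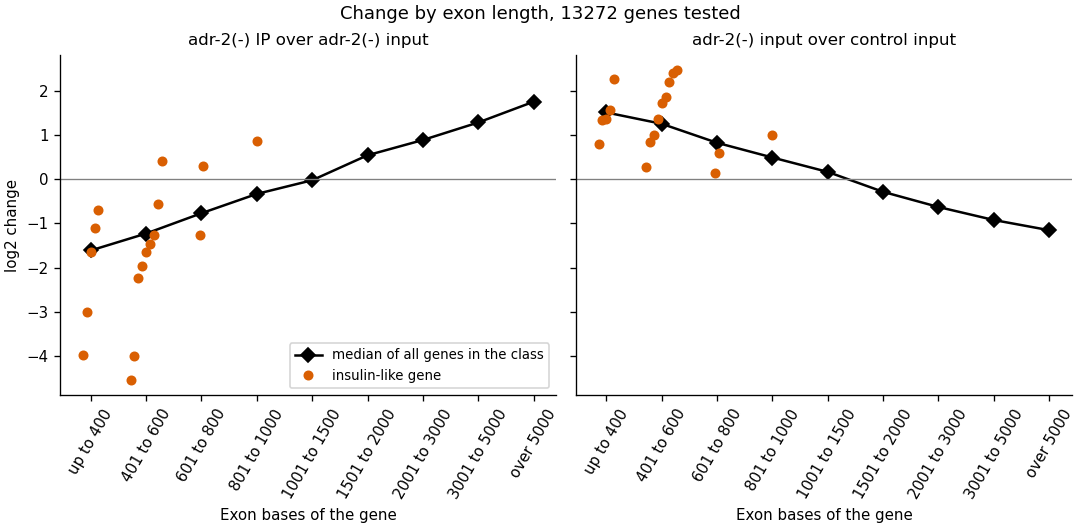
Median log2 change of the tested genes with a known exon length in 9 classes of exon length (black diamonds) and the values of the 17 insulin-like genes (orange points), for adr-2(-) IP over input (left) and adr-2(-) input over control input (right). The diamonds rise with length on the left, from -1.61 to 1.76, and fall on the right, from 1.52 to -1.15, and the insulin-like genes lie in the 4 shortest classes.

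The IPs of the strains were also compared with each other. 0 of 17 members were called higher in the adr-2(-) IPs, against 1.53% of all genes tested, and 0 lower, against 0% (limma). No member had an unadjusted p under 0.05 by limma, against 288 higher and 12 lower of all 13276 genes. At that level 1 member was higher by edgeR and by DESeq2, against 399 (deposited size factors) and 504 genes. Neither of these tools called any member, against 203 and 222 genes called higher. Without the unmatched rows limma called 0% of 13061 genes in either direction, so the share of 1.53% came with those rows, and the members' count of 0 was no different from that of all genes. The lowest adjusted p of a member was 0.982, and the median log2 change was 0.55 over the members and -0.04 over all genes. The IP replicates of adr-2(-) were far apart. Replicate 2 was above replicate 1 in 16 of the 17 members, by a median of 3.57-fold and up to 17.1-fold for ins-20. In the control, replicate 2 was above replicate 1 in 11 of 17, with a median of 1.24-fold. The replicate 1 IPs of the strains differed little, with a median of 1.02-fold for adr-2(-) over control, while the replicate 2 IPs differed by a median of 2.45-fold, adr-2(-) over control.

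The ratio of ratios, IP over input in adr-2(-) divided by IP over input in the control, asked whether association with ADR-1 differed with adr-2. 0 members were called higher, against 1.93% of all genes tested, and 0 lower, against 0.158% (limma), shares that were 0% and 0% without the unmatched rows. edgeR (deposited size factors) and DESeq2 called no member, against 15 and 192 genes lower and 234 and 393 higher. At an unadjusted p under 0.05, limma, edgeR and DESeq2 had 956, 990 and 1067 of all 13276 genes lower. They had 1413, 1220 and 1210 genes higher. Each tool had 1 member lower and 0 higher at that level. That member was ins-34, at 155 and 79.1 units in the IPs against 160 and 169 units in the inputs of adr-2(-), and at 136 and 279 units in the IPs against 60.2 and 65.9 units in the inputs of the control. Its log2 ratio of ratios was -2.18 ± 0.72 (limma adjusted p = 0.168, and 0.0361 without control IP replicate 1, where it was -2.70). The median was -0.94 over the members, 0.02 over all genes, and -0.79 over all genes with up to 1000 exon bases, which include all 17 members. In the class of up to 400 exon bases it was -1.17 over all genes and -0.64 over the 5 members there. With libraries rescaled to the same total, the median was 0.48 over the members and 1.41 over all genes.

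Genes for the receptor and its signalling, all longer than 1000 exon bases, were examined as well. The receptor gene daf-2 and the FOXO gene daf-16 were in unmatched rows, so no value is given for them, and the other 9 of 11 were taken from the fit without such rows. Of the 9, 6 were called higher in the adr-2(-) IPs than in the adr-2(-) inputs, against 12.7% of all genes tested, and 6 lower in the adr-2(-) inputs than in the control inputs, against 7.93% (limma): age-1, akt-1, akt-2, daf-18, pdk-1 and pptr-1 in both. Long genes as a class were called more often, by the fit with the unmatched rows. Of genes with 2001 to 3000 exon bases, it called 25.5% in the first comparison, against 14.3% of all genes. In the second it called 18.1%, against 9.36%. The kinase gene pdk-1 was at 289.8 and 258 units in the adr-2(-) IPs against 64.03 and 44.5 units in the adr-2(-) inputs, a log2 change of 2.34 ± 0.38 (limma adjusted p = 0.00563), while the control inputs had 394 and 382 units. akt-2, another kinase gene, was at 581 and 555 units in the adr-2(-) IPs against 70.4 and 116 units in the adr-2(-) inputs (2.64 ± 0.53, limma adjusted p = 0.0114), while the control inputs had 334 and 389.97 units. None of the 9 was called in the other 3 comparisons, in which this fit called 0% of all 13061 genes. In the fit with the unmatched rows, pdk-1 was called higher in the ratio of ratios, against 1.93% of all genes. Its log2 value there was 2.76 ± 0.51 (limma adjusted p = 0.0312).

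Of 12 genes for processing and release of peptides, 6 were called higher in the adr-2(-) IPs than in the adr-2(-) inputs, against 14.3% of all genes tested, and 1 lower, against 10.4% (limma). Their median exon length was 2159 bases, and of all genes with 2001 to 3000 exon bases 25.5% were called higher. None of the 12 was called in the other 4 comparisons, in which at most 9.36% of all genes were called in either direction. The proprotein convertase gene egl-3 was at 1530 and 4933 units in the adr-2(-) IPs against 621 and 917 units in the adr-2(-) inputs (log2 change 1.86 ± 0.51, limma adjusted p = 0.0326). unc-31, which encodes the release factor CAPS, was at 633 and 601 units in the adr-2(-) IPs against 44.8 and 53.4 units in the adr-2(-) inputs (3.63 ± 0.68, limma adjusted p = 0.0086). The others called higher were the convertase genes bli-4 and kpc-1, ida-1, a dense-core vesicle gene, and unc-108, which encodes RAB-2. asna-1, known to be needed for insulin secretion, was called lower (-1.32 ± 0.30, limma adjusted p = 0.0160).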

How the data were processed

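RNA was sequenced from 8 libraries, IP and input of the adr-2(-) and control strains with 2 replicates each, grouped by sample title. Per the study's methods, the authors selected poly(A) RNA, aligned stranded single-end reads to ce11 with WormBase WS275 genes (STAR, single locations only, so reads shared by near-identical genes are left out), counted sense reads per gene (featureCounts) and divided the counts by DESeq2 size factors. The deposited signal is this normalised count. The deposited table also holds the authors' own fold changes and p-values, which were not used. Reads were recovered from the steps of the values, with at least 99.996% of values whole within 0.05 of a read in rows whose deposited mean matched; 223 rows did not match, none of them an insulin-like gene.

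limma 3.58.1 (R 4.3.3, lmFit, then eBayes with a trend) fitted log2(value + 1) of genes averaging 10 or more, with 4 group means. Benjamini-Hochberg adjustment was over all genes tested. In counts simulated with 200 changed genes, for adr-2(-) IP over input, limma recovered 7 at a log2 change of 2 and 160 at 4. False calls were 3 and 18. edgeR recovered 5 and 183, and DESeq2 37 and 191. A lack of calls thus does not show that log2 changes of 2 were absent. P-values measure only the spread between these libraries. Alternatives were other pseudocounts (0.1 and 10), means of 50 or more, no filter at all, rescaling to the same total or by TMM, a replicate block, edgeR 4.0.16 (quasi-likelihood) and DESeq2 1.42.0 on the recovered reads, an adjusted p of 0.001, removal of the unmatched rows, centring by length class and removal of each library. Expected detection at equal depth was hypergeometric. Values were named for members with a mean of at least 10, called members and members of known role. ins-38 was named through RefSeq. The members and lists were chosen with earlier results of these data known.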

Additional observations from a re-analysis of the deposited data

How the results depend on the processing

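The number of members called lower in the adr-2(-) IPs than in the inputs, 4, kept within 1.5 times under pseudocounts of 0.1 and 10, TMM rescaling, DESeq2, removal of the unmatched rows and a replicate block (3). It was 1 with no filter, with a mean of at least 50, with libraries rescaled to the same total and with edgeR on the deposited size factors, 2 with edgeR and TMM, and 0 at an adjusted p of 0.001 and with length classes centred. Rescaling to the same total called 1 member higher there. Without 1 library the count lower ranged from 0 (without adr-2(-) IP replicate 1 or either adr-2(-) input) to 6 (without adr-2(-) IP replicate 2), and was 2 without either control input, whose values enter through the shared spread. The number called higher in the adr-2(-) inputs, 2, was 1 with a pseudocount of 0.1, a mean of at least 50, a replicate block or without the unmatched rows, and 0 with no filter, the same total, either edgeR setting, an adjusted p of 0.001 and length classes centred; without 1 library it ranged from 0 (without any 1 of the 4 inputs) to 3 (without either control IP). For IP over input in the control, DESeq2 called 1 higher and 2 lower, and leaving out a library gave 0 to 1 higher (1 without control IP replicate 2) and 0 to 1 lower (1 without adr-2(-) IP replicate 1). The ratio of ratios had 0 to 1 lower when a library was left out (1 without control IP replicate 1). No called member changed sign under the 20 or 21 alternatives that tested it: ins-20 kept its call in 12 of 20, ins-26 in 13 of 20, ins-35 in 10 of 21, ins-11 in 8 of 20, ins-18 in 11 of 21 and ins-6 in 4 of 20. Over all genes, leaving out the unmatched rows took the calls of IP over input in the control to 0 higher and 0 lower (71 and 377 with them), those between the IPs to 0 higher (203) and those of the ratio of ratios to 0 and 0 (256 and 21), at the loss of 215 genes from the fit. Fits without an adr-2(-) library or a control input also called fewer of all genes lower in the adr-2(-) IPs. Those without an input called fewer of all genes higher in the adr-2(-) inputs. The cause of the lost calls was not tested, except that the adjusted p of 0.001 is stricter by construction. Deviations of same-numbered libraries correlated at 0.457 between the IP groups and between -0.01 and 0.04 elsewhere. Same-numbered IPs of the strains thus varied together, while replicate numbers did not pair the other libraries. The main fit had no replicate block, and adding 1 changed no count beyond those given. Detection in both replicates at the shallowest depth was expected for 7.97 members (adr-2(-) IPs) and 7.23 (control IPs); with a minimum of 10 reads it was 7 in the adr-2(-) inputs and 8 in the control inputs, and with 1 read 23 in the control inputs. Single libraries of adr-2(-) detected 27 to 29 members (IPs) and 15 to 18 (inputs), those of the control 25 to 30 (IPs) and 15 to 17 (inputs). Input depth limits what can be seen: 20 members had fewer than 3 reads in every input.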
